A study of Mus musculus with 10 samples.

Results

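Cytochrome P450 genes of families 1 to 4 were followed in 10 mouse livers, and 65 genes of the 19935 that the arrays measured belonged to this group. A gene was taken as a member when its platform symbol had the form Cyp, a family number from 1 to 4, 1 letter and a number, and when a probe set carried that symbol alone. The 65 members were 3 genes of family 1, 43 of family 2, 6 of family 3 and 13 of family 4. A further 7 probe sets that name several genes, among them the one shared by Cyp2a4 and Cyp2a5, and 5 whose symbol has another form, such as Cyp4a12a, were not members. The animals were 12 weeks old and fell into 5 wild-type (WT) mice and 5 mice without nucleomethylin (NML-KO), the nucleolar protein encoded by Rrp8, with 1 array of total liver RNA for each. The labels give no strain, sex or feeding state, do not say in which cells or at what stage the gene was removed, and name no agent.

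Cytochrome P450 enzymes are haem proteins, most of them held in the membrane of the endoplasmic reticulum, that oxidize drugs, steroids, fatty acids and other small molecules with electrons passed on by the reductase Por. The liver is a main site of families 1 to 3, and nuclear receptors and the aryl hydrocarbon receptor switch individual subfamilies on when their substrates arrive. Many of these genes also run on a daily cycle, driven in part by the PAR bZIP transcription factors Dbp, Tef and Hlf, which the clock controls directly, and against the repressor Nfil3.

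The Rrp8 probe set read lower on all 5 NML-KO arrays than on all 5 WT arrays, with means of 6.87 ± 0.22 and 7.75 ± 0.11 (log2 intensity, SD, n = 5 each). An exact two-sided permutation over the arrays gave p = 0.0079, and 5 against 5 can give no smaller value. In the limma fit used for the P450 genes its adjusted p over all genes was 0.109, so the deleted gene itself did not pass there, and of the alternatives run it passed in the one without NML-KO 4 (0.0170). Dbp split the livers into sets that did not follow genotype. Its log2 intensity was above 8 in WT 1, WT 2 and NML-KO 1 to 3 and below 8 in WT 3 to 5, NML-KO 4 and NML-KO 5, the lower title numbers of each genotype being high, and the livers nearest to that line lay at 9.68 and 6.60. These sets, called Dbp-high and Dbp-low, were selected on a measured value and are no label of the study, and time of day, feeding and handling cannot be told apart here. All 6 hepatocyte markers were bright in all livers, with a mean log2 intensity between 13.94 and 14.08, though between the Dbp sets described below 2 of them were higher and 1 was lower in the fit. The Y-linked genes Eif2s3y, Kdm5d and Uty lay at 7.11 or above and Xist at 4.99 or below in all 10. WT 2 had the highest mean of 5 adipocyte markers, at 6.76 against 5.32 to 5.59 in the other livers, and NML-KO 4 the highest of 6 Kupffer cell markers, at 8.56 against 7.26 to 8.35. In whole liver, fewer cells of a type and less RNA per cell cannot be told apart.

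Not every member gave a clear signal. The mean log2 intensity over the 10 arrays was 6 or more for 39 members and below 6 for 26, and the median array value was between 62.5 and 66.7 in intensity, close to that line. The dim members included Cyp1a1, which the aryl hydrocarbon receptor induces and which lay between 4.72 and 5.03, and Cyp3a16, between 4.38 and 4.53. Members of the dim group moved little, with a median range of 0.39 on the log2 scale between the lowest and the highest liver, against 0.87 among the other 39 and 0.49 over all genes measured.

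Promoter sequence was at hand for 53 of the 65 members, from RefSeq (GRCm38.p6), as windows from 250 bases before to 50 bases after each gene start. The stretches before the start are shown for Cyp3a25, Cyp3a57, Cyp2c67, Cyp2c68 and Cyp2c70. Cyp3a25 and Cyp3a57 were the most alike pair among the windows shown, and windows of other members were not compared. Of the Cyp2c genes shown, Cyp2c67 and Cyp2c70 were lower in Dbp-high livers and Cyp2c68 fell just outside the threshold. Capitals mark the nuclear receptor half-site AGGTCA, read on either strand (TGACCT on the other), a motif that was added after values had been seen. The windows lie at chr5:146009619-146009868 (minus strand) for Cyp3a25, chr5:145345019-145345268 (plus strand) for Cyp3a57, chr19:39649043-39649292 (minus strand) for Cyp2c67, chr19:39741102-39741351 (minus strand) for Cyp2c68 and chr19:40187287-40187536 (minus strand) for Cyp2c70.
Cyp3a25: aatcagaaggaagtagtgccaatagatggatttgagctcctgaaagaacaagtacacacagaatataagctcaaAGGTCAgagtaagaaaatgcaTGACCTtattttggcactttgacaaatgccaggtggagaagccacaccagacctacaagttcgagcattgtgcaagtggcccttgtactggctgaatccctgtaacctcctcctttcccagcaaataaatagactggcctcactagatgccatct
Cyp3a57: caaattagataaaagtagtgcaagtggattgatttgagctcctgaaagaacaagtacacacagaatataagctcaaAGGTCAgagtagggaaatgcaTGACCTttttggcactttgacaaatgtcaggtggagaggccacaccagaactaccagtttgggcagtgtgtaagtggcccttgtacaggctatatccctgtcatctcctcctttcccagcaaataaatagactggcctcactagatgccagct
Cyp2c67: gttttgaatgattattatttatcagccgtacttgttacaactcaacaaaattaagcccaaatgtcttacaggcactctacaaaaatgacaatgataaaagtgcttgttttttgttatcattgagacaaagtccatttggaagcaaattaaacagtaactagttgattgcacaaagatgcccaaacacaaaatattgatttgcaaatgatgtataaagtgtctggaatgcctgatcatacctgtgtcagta
Cyp2c68: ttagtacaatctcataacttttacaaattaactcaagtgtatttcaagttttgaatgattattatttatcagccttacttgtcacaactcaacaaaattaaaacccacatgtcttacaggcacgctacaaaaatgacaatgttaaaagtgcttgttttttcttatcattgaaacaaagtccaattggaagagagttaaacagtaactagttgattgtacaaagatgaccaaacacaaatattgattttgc
Cyp2c70: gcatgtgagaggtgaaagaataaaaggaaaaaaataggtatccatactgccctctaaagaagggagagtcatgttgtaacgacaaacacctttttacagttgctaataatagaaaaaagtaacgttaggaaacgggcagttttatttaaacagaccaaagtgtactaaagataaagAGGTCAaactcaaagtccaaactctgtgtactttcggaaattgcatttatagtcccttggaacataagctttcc

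The windows of Cyp3a25 and Cyp3a57 were identical at 224 of 252 aligned positions (88.9%) and both held the half-site once on each strand, the first starting 176 bases before the start in Cyp3a25 and 174 in Cyp3a57. In both it was preceded by 3 further bases to give CAAAGGTCA, which 0.544% of all 27025 genes with a window carried and which no other member did. The windows of Cyp2c67 and Cyp2c68 were 63.1% identical and held no half-site. That of Cyp2c70 was 51.9% and 51.2% identical to them, against 45.7% to 51.2% for pairs of a Cyp2c and a Cyp3a window, and held 1 half-site, beginning 74 bases before the start. Over whole windows, the half-site on either strand was present in 15 of 53 members (28.3%) and in 18.1% of all genes. These 15 include several Cyp2b and Cyp3a genes, among them the closely alike Cyp3a25 and Cyp3a57. The windows are therefore not independent, and the difference in share was not tested. The exact D-box letters TTATGTAA or TTACGTAA, which Dbp can bind, were searched on both strands. They were found in 0 of the 53 members and in 1.23% of all genes. Letters this rare cannot set 53 windows apart from all genes. The E-box CACGTG was present in 1 member, Cyp2j6, and in 8.09% of all genes. Such matches describe letters in a short window, and sites elsewhere in these genes were not examined.

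Between genotypes, no P450 gene of these families passed the threshold. At a Benjamini-Hochberg adjusted p below 0.05 in limma, 0 of 65 members were called, against 0% of the 19935 genes. At an unadjusted p below 0.05 the count was 1 member (1.54%), against 2.70% of all genes. The genotypes overlapped for every member, while 0.406% of all genes showed no overlap. The median difference over the members was -0.020 on the log2 scale (NML-KO minus WT), with 24 members above 0 and 41 below, against a median of -0.0065 over all genes.

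**Figure D1:**
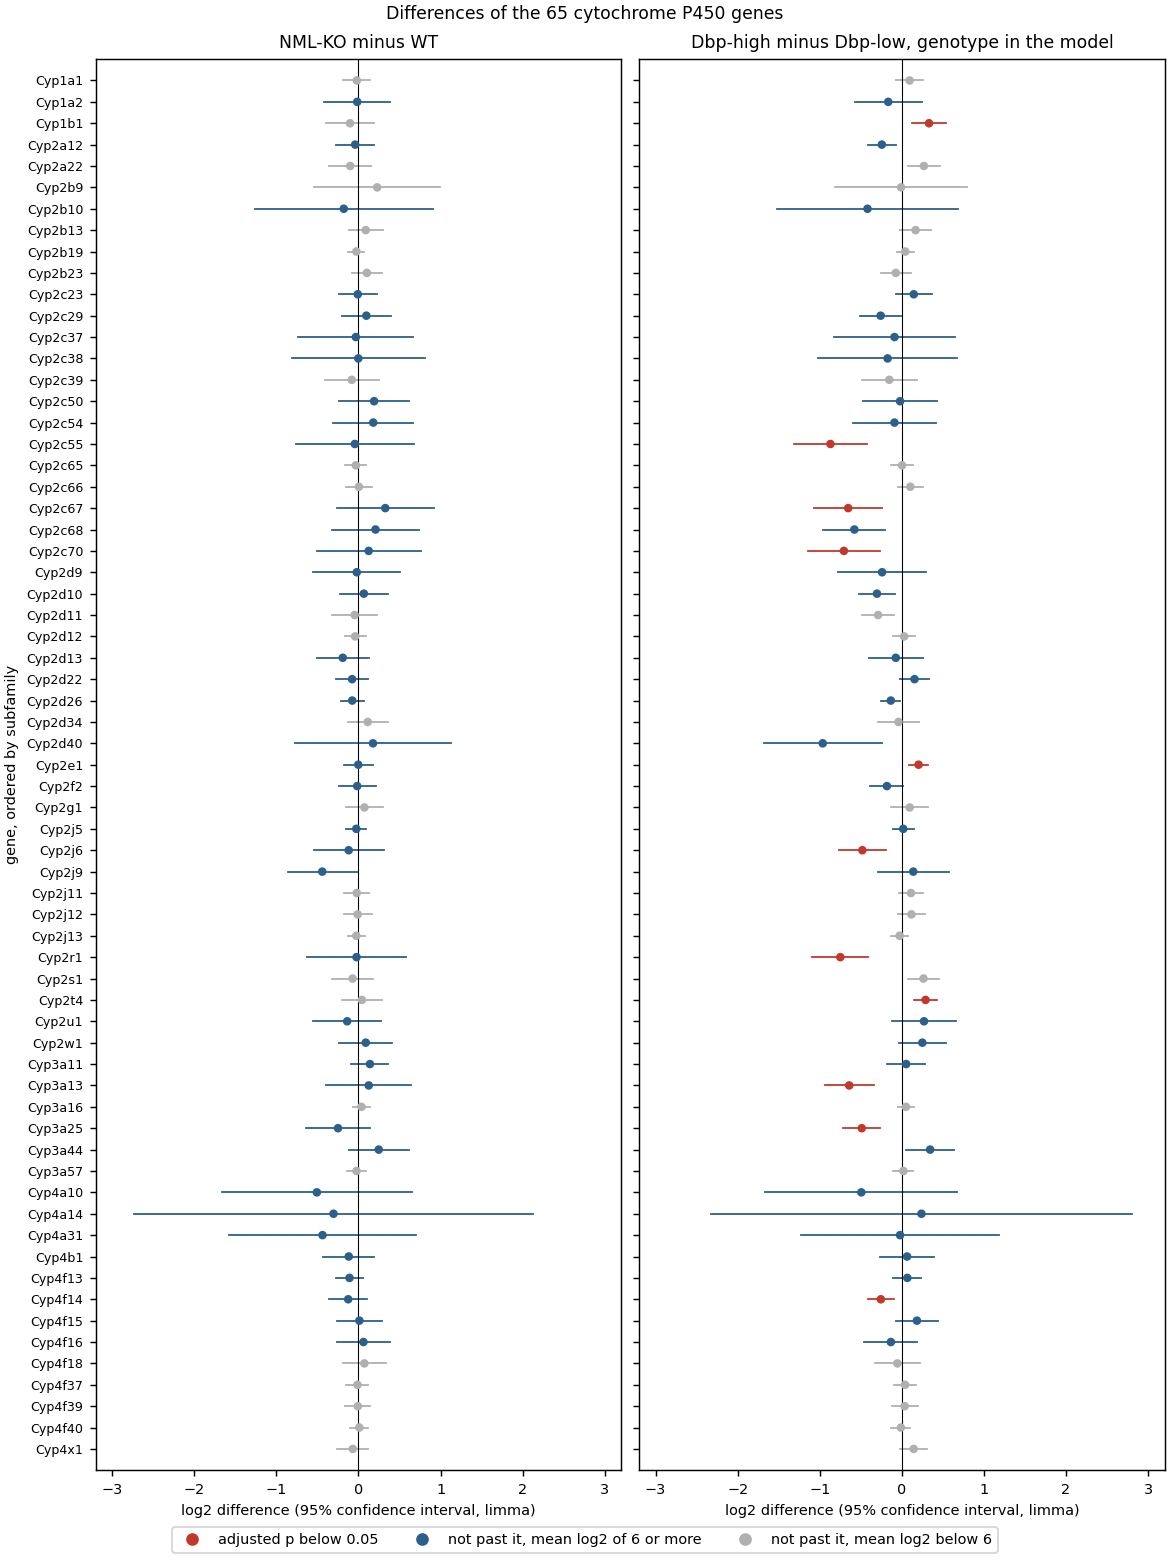
Log2 differences of the 65 genes with their 95% confidence intervals from limma, NML-KO minus WT on the left and Dbp-high minus Dbp-low with genotype in the model on the right (5 arrays in each group or set). No gene is past the threshold on the left and 11 are on the right, while the intervals of Cyp4a10, Cyp4a14 and Cyp4a31 are the widest in both panels.

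How far a genotype difference was bounded depended on the subfamily. The 95% confidence interval lay inside 0.5 on the log2 scale in both directions for 42 of 65 members and inside 1 for 60, the exceptions being Cyp2b10, Cyp2d40, Cyp4a10, Cyp4a14 and Cyp4a31. All 8 Cyp4f genes, which hydroxylate the end of fatty acid chains and leukotrienes, were within the 0.5 bound. However, 4 of these 8, and 26 of the 65 members, had a mean log2 intensity below 6. Any background left in the values would shrink the differences and intervals of such dim genes. Cyp2e1, which oxidizes ethanol and acetone, differed by -0.0026 (SE 0.079, interval -0.18 to 0.17). Cyp1a2, the caffeine-oxidizing enzyme of pericentral hepatocytes, differed by -0.015 (interval -0.42 to 0.39), and Cyp2f2, a periportal enzyme, by -0.015 (interval -0.24 to 0.21).

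Cyp2j9, of a subfamily that forms epoxides from arachidonic acid, had the smallest unadjusted p of the members. Its log2 intensities were 8.05, 8.98, 8.24, 7.83 and 8.48 in WT 1 to 5 and 7.75, 7.72, 8.08, 8.01 and 7.80 in NML-KO 1 to 5. WT 2 and WT 5 were the highest, and the remaining WT livers lay within or close to the NML-KO range. The mean of Cyp2j9 was 1.36-fold below WT in NML-KO livers (log2 difference -0.44, SE 0.19, unadjusted p = 0.0414, adjusted p = 0.999 by limma). Without WT 2 the difference was -0.28 (unadjusted p = 0.0689 by limma), and WT 2 is also the liver with the high adipocyte markers, whose part in this value was not tested. All 6 Cyp2j genes had a difference below 0, from -0.44 to -0.0099, 3 of them with a mean log2 intensity below 6.

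In the Cyp3a subfamily, the main group for drug and steroid oxidation, the genotype differences ran both ways. Cyp3a44, a female-biased gene, was at 7.43, 7.75, 7.19, 7.36 and 7.55 in WT 1 to 5 and at 7.84, 7.86, 7.98, 7.10 and 7.74 in NML-KO 1 to 5. NML-KO 4 was the lowest of all 10 livers, and the other NML-KO livers lay near or above the highest WT liver. The difference was 0.25 (SE 0.16, adjusted p = 0.999 by limma) and 0.40 without NML-KO 4 (adjusted p = 0.924). Cyp3a11, the main target of the receptor PXR, lay between 12.97 and 13.38 in WT and between 13.06 and 13.46 in NML-KO livers, a difference of 0.14 (SE 0.10). Cyp3a25 differed by -0.25 (SE 0.18), at -0.023 among Dbp-high and -0.28 among Dbp-low livers, and by -0.14 without WT 5 and -0.16 without NML-KO 2. Cyp4f13 differed by -0.11, and with 1 array left out by -0.17 to -0.074. Cyp2d13 differed by -0.19, by -0.10 without WT 1 and by -0.31 without WT 2. Cyp2b23 differed by 0.10, and by 0.17 without WT 3. Cyp2c67 differed by 0.33, at 0.87 among Dbp-high and 0.048 among Dbp-low livers, and by 0.15 without WT 2 and 0.18 without WT 1. The unadjusted p of Cyp4f13, Cyp2d13, Cyp2b23 and Cyp2c67 was 0.182, 0.209, 0.236 and 0.249, with an adjusted p of 0.999 for each by limma.

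Between Dbp-high and Dbp-low livers, 11 of the 65 genes differed, 3 of them higher and 8 lower where Dbp was high. The model held genotype as a term, and the shares of all genes called in the same way were 4.92% higher and 7.99% lower, 12.9% in all, against 4.62%, 12.3% and 16.9% of the members. The members' share was therefore near that of all genes. The sets did not overlap for 10 members (15.4%), 3 higher and 7 lower, and for 12.2% of all genes. The median difference over the members was -0.012 on the log2 scale, with 31 above 0 and 34 below, against 0.024 over all genes. Among the 39 members with a mean log2 intensity of at least 6 the median was -0.13, and 1 was called higher and 8 lower. When dim genes were left out of the fit, 10 of these 39 passed (25.6%), all lower. Of all genes tested in that fit 24.5% passed, a share that holds higher and lower calls. Neither the split by direction nor the median was counted over all genes of that fit. Whether the lean to lower values is particular to the members was therefore not tested.

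The count changed with single arrays. For the fits that left arrays out, the share of all genes called was not counted. Whether these counts are particular to the members was therefore not tested. With 1 WT liver left out the count of members fell to 5 (WT 1 or WT 4), 6 (WT 3 or WT 5) or 7 (WT 2). With 1 NML-KO liver left out it was 4 for NML-KO 5, 7 for NML-KO 2, 11 for NML-KO 4 and 12 for NML-KO 1 or NML-KO 3. With WT 2 and NML-KO 4 both left out it was 6. Within WT livers alone 6 members passed (9.23%), against 6.13% of all genes. Within NML-KO livers alone 0 passed, against 1.28% of all genes. There 8 members had an unadjusted p below 0.05 by limma, a count without its share of all genes. The 11 genes kept the direction of their difference under all of these alternatives in which they were tested.

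**Figure D2:**
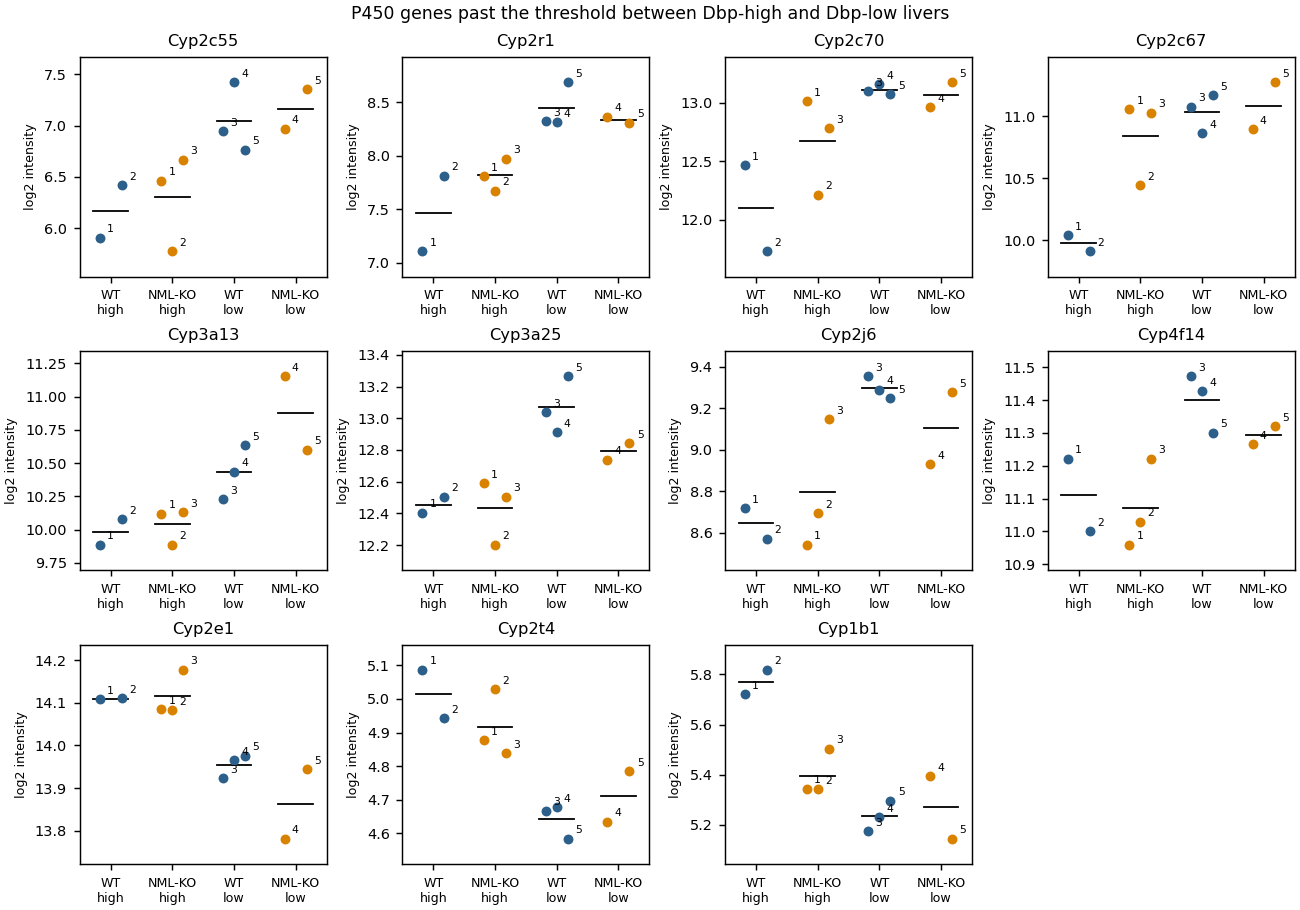
Log2 intensity of the 11 genes past the threshold between Dbp sets, in order of their difference, with 1 point per liver numbered by replicate, blue for WT and orange for NML-KO, and a bar at the mean of each genotype and set; the vertical axes differ and do not start at 0. For Cyp2r1, Cyp3a13 and Cyp3a25 all 5 Dbp-high livers lie below all 5 Dbp-low livers.

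Of the genes lower in Dbp-high livers, Cyp3a13, Cyp3a25 and Cyp2r1 stayed past the threshold whichever array was left out. Cyp2r1, the microsomal vitamin D 25-hydroxylase, was at 7.11, 7.81, 7.81, 7.67 and 7.97 in the Dbp-high livers WT 1, WT 2 and NML-KO 1 to 3, and at 8.32, 8.32, 8.69, 8.37 and 8.31 in the Dbp-low livers WT 3 to 5, NML-KO 4 and NML-KO 5. WT 1 was the lowest by a wide margin, and the sets did not overlap. Cyp2r1 was 1.68-fold lower (log2 difference -0.75, SE 0.15, adjusted p = 0.0110 by limma), at -0.98 within WT and -0.52 within NML-KO livers.

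Cyp3a13, a Cyp3a gene that lies apart from the main cluster, was at 9.89, 10.08, 10.12, 9.89 and 10.13 in the same Dbp-high livers and at 10.23, 10.44, 10.64, 11.15 and 10.60 in the Dbp-low livers. NML-KO 4 was the highest, and the sets did not overlap. The gene was 1.56-fold lower in Dbp-high livers (log2 difference -0.64, SE 0.13, adjusted p = 0.0118 by limma). Cyp3a25 was at 12.40, 12.50, 12.59, 12.20 and 12.50 in the Dbp-high and at 13.04, 12.91, 13.27, 12.74 and 12.84 in the Dbp-low livers, again without overlap. It was 1.40-fold lower (log2 difference -0.49, SE 0.10, adjusted p = 0.0110 by limma). Cyp3a57 stayed between 4.48 and 4.68 in all livers, below the dim line. A probe set that names Cyp3a57, Cyp3a25 and a further gene together was left out and not tested. It read 10.93 to 11.16 in Dbp-high and 11.11 to 11.70 in Dbp-low livers, so there the sets overlapped.

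The other Cyp3a genes did not pass. Cyp3a44 had the opposite sign, 0.34 (SE 0.13, adjusted p = 0.125 by limma). Cyp3a11 differed by 0.052 (SE 0.11, adjusted p = 0.794), with an interval from -0.18 to 0.29 that does not hold the estimate for Cyp3a13.

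The Cyp2c subfamily, with 13 members the largest here, had 10 members below 0 and 3 above between the Dbp sets, with a median of -0.15. Its enzymes oxidize drugs and turn arachidonic acid into epoxides. Cyp2c55 had the widest difference of the genes called, with 5.91, 6.42, 6.46, 5.78 and 6.67 in the Dbp-high and 6.94, 7.42, 6.76, 6.97 and 7.36 in the Dbp-low livers, without overlap. It was 1.83-fold lower (log2 difference -0.87, SE 0.20, adjusted p = 0.0180 by limma), and it was lost without WT 1 (adjusted p = 0.0590) and without NML-KO 5 (0.0662). Cyp2c55 is a known target of the receptors CAR and PXR, and of the 6 listed targets of these receptors it was the single one called.

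Cyp2c70, which makes muricholic acids in mice, was at 12.46, 11.73, 13.01, 12.21 and 12.78 in the Dbp-high and at 13.10, 13.16, 13.07, 12.96 and 13.17 in the Dbp-low livers. The Dbp-low livers lay close together, while the Dbp-high livers spread out below them and NML-KO 1 reached into their range. Cyp2c70 was 1.63-fold lower (log2 difference -0.71, SE 0.20, adjusted p = 0.0418 by limma). Cyp2c67 was at 10.04, 9.91, 11.06, 10.44 and 11.03 in the Dbp-high and at 11.08, 10.87, 11.17, 10.90 and 11.28 in the Dbp-low livers, and was 1.57-fold lower (log2 difference -0.65, SE 0.19, adjusted p = 0.0461 by limma). Its low values came from WT 1, WT 2 and NML-KO 2, with -1.06 within WT and -0.24 within NML-KO livers. Cyp2c70 and Cyp2c67 both stayed past the threshold without NML-KO 1, NML-KO 3 or NML-KO 4 but not without any of the other 7 arrays, with adjusted p up to 0.0924 and 0.127. Just outside the threshold, Cyp2c68 differed by -0.58 (SE 0.17, adjusted p = 0.0521 by limma). Shared signal between the probe sets of these Cyp2c genes was not tested.

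Cyp2j6 and Cyp4f14 completed the genes that were lower. Cyp2j6, whose enzyme works on arachidonic acid, was at 8.72, 8.57, 8.54, 8.69 and 9.15 in the Dbp-high and at 9.36, 9.29, 9.25, 8.93 and 9.28 in the Dbp-low livers, with NML-KO 3 above NML-KO 4. It was 1.40-fold lower (log2 difference -0.48, SE 0.13, adjusted p = 0.0354 by limma), and it stayed past the threshold in 2 of 10 fits that each left 1 array out, those missing NML-KO 3 or NML-KO 4 (adjusted p up to 0.105 otherwise). Cyp4f14, a leukotriene hydroxylase, was 1.19-fold lower (log2 difference -0.26, SE 0.070, adjusted p = 0.0401 by limma). It also passed in 2 of 10 such fits, those without WT 1 or NML-KO 3 (adjusted p up to 0.105 otherwise), and after quantile normalization its difference was -0.13 (adjusted p = 0.285).

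The 3 genes that were higher in Dbp-high livers included 2 dim ones. Cyp2e1 was at 14.11, 14.11, 14.09, 14.08 and 14.18 in the Dbp-high and at 13.92, 13.96, 13.98, 13.78 and 13.94 in the Dbp-low livers. The sets did not overlap, but the difference was small, 1.15-fold (log2 difference 0.20, SE 0.051, adjusted p = 0.0276 by limma). Its adjusted p rose to 0.0595 when WT 3 was left out, 0.0520 for WT 4, 0.0802 for NML-KO 4 and 0.0530 for NML-KO 5. It was 0.0721 with the trended and robust prior and 0.0598 when dim genes were left out. Cyp2t4 lay between 4.84 and 5.09 in Dbp-high and between 4.58 and 4.78 in Dbp-low livers, a log2 difference of 0.29 (SE 0.065, adjusted p = 0.0174 by limma, 0.0502 without WT 1). Cyp1b1, an enzyme best known from tissues other than hepatocytes, lay between 5.34 and 5.82 in Dbp-high and between 5.15 and 5.39 in Dbp-low livers, a log2 difference of 0.33 (SE 0.091, adjusted p = 0.0414 by limma). Its highest values were in WT 1 and WT 2, and it passed in 3 of 10 fits with 1 array left out, those without NML-KO 1, NML-KO 2 or NML-KO 4 (adjusted p up to 0.111 otherwise). The adipocyte markers were high in WT 2 as well, but near the other livers in WT 1, and their part was not tested.

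The Cyp2d subfamily, which holds 9 members, gave no call although 7 of 9 were below 0 between the Dbp sets. Cyp2d40 had the widest difference of all members at -0.96 (SE 0.32, adjusted p = 0.0832 by limma). It was at 8.02, 6.80, 8.43, 7.91 and 8.24 in the Dbp-high and at 8.93, 8.71, 8.72, 8.01 and 9.47 in the Dbp-low livers, lowest in WT 2 and highest in NML-KO 5. Cyp2d9, a male-biased gene, differed by -0.24 (SE 0.24, adjusted p = 0.563 by limma). WT 2 was the lowest WT liver for it, at 10.58, and NML-KO 4 the lowest NML-KO liver, at 10.96.

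The widest spread of all was in the Cyp4a subfamily, whose enzymes hydroxylate the end of fatty acid chains and whose genes are targets of PPARA, the receptor that fatty acids activate in fasting. Cyp4a14 was at 6.60, 12.82, 7.25, 10.51 and 11.31 in WT 1 to 5 and at 8.90, 9.58, 10.25, 9.86 and 8.38 in NML-KO 1 to 5. WT 2 was 74.2-fold above WT 1, and this range ranked 6 of the 19935 genes. Cyp4a10 was at 8.75, 11.24, 10.16, 11.10 and 12.08 in WT and at 9.67, 10.36, 10.61, 10.03 and 10.14 in NML-KO livers. Cyp4a31 was at 8.36, 10.96, 9.28, 10.24 and 11.26 in WT and at 9.38, 9.64, 10.40, 9.14 and 9.36 in NML-KO livers. For all 3 genes WT 1 was the lowest of the 10 livers, WT 3 was the lowest but one of the WT livers, and the highest and lowest livers were both WT.

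**Figure D3:**
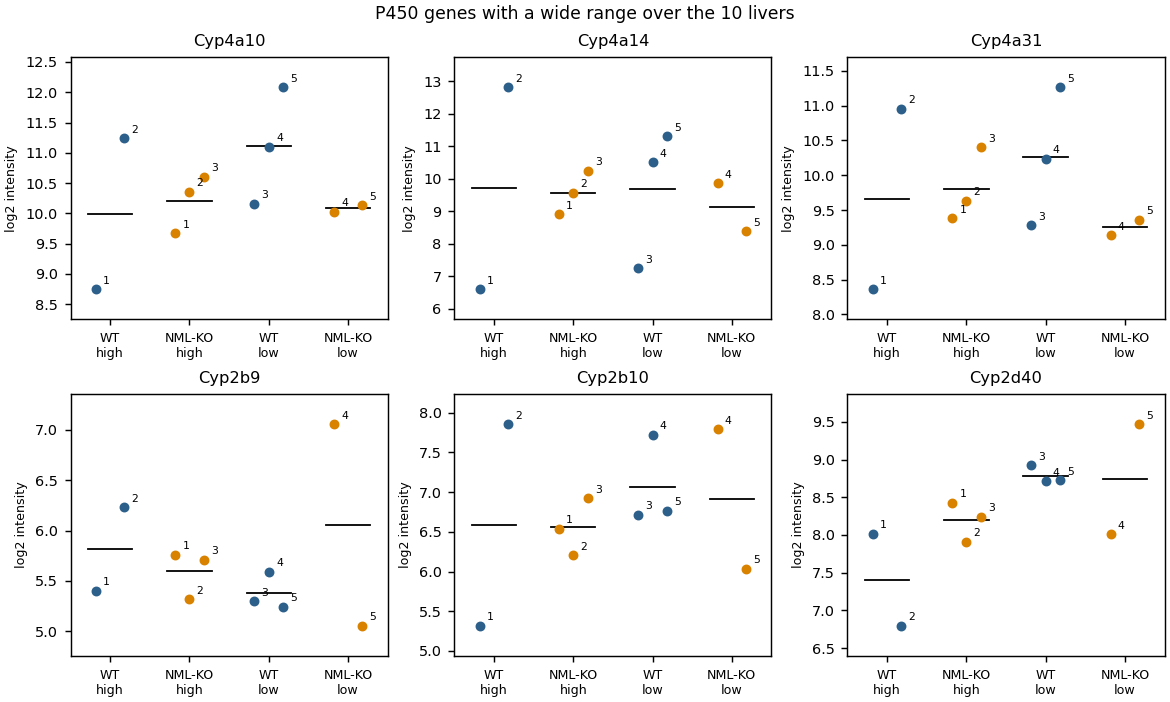
Log2 intensity of 6 genes with a wide range over the 10 livers, with 1 point per liver numbered by replicate, blue for WT and orange for NML-KO, and a bar at the mean of each genotype and Dbp set; the vertical axes differ and do not start at 0. In the 3 Cyp4a genes WT 1 is low and WT 2 and WT 5 are high, while the NML-KO livers lie between them.

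Neither grouping separated these genes. The SD of Cyp4a14 was 2.67 in WT and 0.75 in NML-KO livers (n = 5 each), that of Cyp4a10 1.27 and 0.35, and that of Cyp4a31 1.20 and 0.49, a difference in spread that was not tested. The genotype differences were -0.30 (SE 1.10) for Cyp4a14, -0.51 (SE 0.52) for Cyp4a10 and -0.44 (SE 0.51) for Cyp4a31, each with an adjusted p of 0.999 by limma. The Dbp-set differences were 0.24, -0.49 and -0.022 in the same order, with adjusted p of 0.917, 0.591 and 0.985 by limma. For Cyp4a14 the genotype interval from -2.74 to 2.13 leaves even large changes possible. With 1 array left out, the genotype difference of Cyp4a14 ran from -1.08 (WT 1) to 0.48 (WT 2) and that between Dbp sets from -0.91 (WT 2) to 1.48 (WT 1). Ppara itself was higher in Dbp-high livers (log2 difference 0.93, SE 0.090, adjusted p = 0.000232 by limma), with 10.83 to 11.13 against 9.79 to 10.23. The genes of the Cyp4a cluster are alike in sequence, and a further probe set that Cyp4a10, Cyp4a31 and Cyp4a32 share was left out, so the values of Cyp4a10 and Cyp4a31 may not be independent.

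Cyp2c38, another gene with a wide range, ordered the WT livers in the same way as Cyp4a10. It was at 6.74, 8.44, 7.20, 8.35 and 8.64 in WT 1 to 5, and between 7.43 and 8.42 in NML-KO livers. Cyp2b10, the classical target of the receptor CAR, was at 5.32, 7.86, 6.72, 7.73 and 6.76 in WT and at 6.54, 6.20, 6.92, 7.79 and 6.03 in NML-KO livers. Its highest livers, WT 2, NML-KO 4 and WT 4, came from both genotypes and both Dbp sets. The genotype difference was -0.18 (SE 0.49) and the Dbp-set difference -0.42 (SE 0.49), both without a call. With 1 array left out the first turned above 0 without WT 2 or WT 4 and the second without WT 1, over -0.57 to 0.067 between genotypes and -0.89 to 0.084 between Dbp sets. Cyp2b9, a female-biased gene of the same subfamily, was highest in NML-KO 4 at 7.06, against 5.06 to 6.23 in the other livers.

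Whether the genotype difference itself differed between the Dbp sets was tested by an interaction term. At an adjusted p below 0.05 in limma 0 members passed, and 0% of all genes. At an unadjusted p below 0.05 there were 6 members (9.23%), against 6.49% of all genes. The 3 with the smallest p, named after their values had been seen, were Cyp2c54, Cyp2c50 and Cyp2c37, neighbouring genes that are pericentral in the liver lobule. Among Dbp-high livers they were higher in NML-KO than in WT, with differences of 0.83, 0.70 and 0.81, and among Dbp-low livers lower, with -0.44, -0.31 and -0.83.

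**Figure D4:**
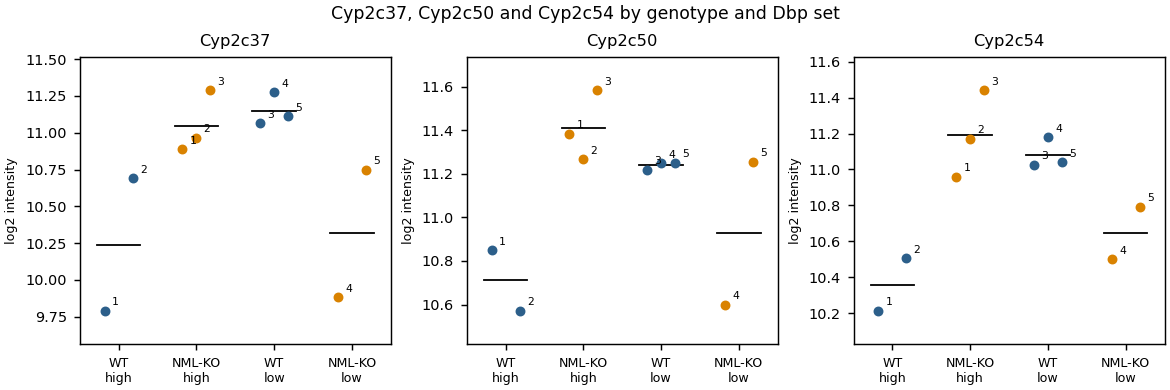
Log2 intensity of Cyp2c37, Cyp2c50 and Cyp2c54 by genotype and Dbp set, with 1 point per liver numbered by replicate, blue for WT and orange for NML-KO, and a bar at the mean; the vertical axes differ and do not start at 0. NML-KO 4 lies well below NML-KO 5 in Cyp2c37 and Cyp2c50, and the WT livers are lower where Dbp is high.

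Cyp2c54 was at 10.21 and 10.51 in the Dbp-high WT livers, at 10.96, 11.17 and 11.44 in the Dbp-high NML-KO livers, at 11.03, 11.18 and 11.04 in the Dbp-low WT livers and at 10.50 and 10.79 in the Dbp-low NML-KO livers. The interaction was 1.27 (SE 0.22, unadjusted p = 0.000284, adjusted p = 0.717 by limma). For Cyp2c50 it was 1.01 (SE 0.25) and for Cyp2c37 1.64 (SE 0.42), both with an adjusted p of 0.717. NML-KO 4 was at 9.88 for Cyp2c37 and 10.60 for Cyp2c50, the lowest NML-KO liver for both. The interaction rests on 2 Dbp-high WT and 2 Dbp-low NML-KO livers, and leaving out any of these 4 makes 1 liver stand for its group, with its spread taken from the others. With 1 array left out it ran from 1.12 to 1.41 for Cyp2c54, from 0.69 to 1.34 for Cyp2c50 and from 1.19 to 2.09 for Cyp2c37. These 3 genes have close relatives in their cluster, so shared probe signal was not separated.

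Some livers were often the lowest or the highest of their genotype across the bright members. The same counts were not made over all genes, and related members may share probe signal. Of the 39 members with a mean log2 intensity of at least 6, WT 1 was the lowest of the WT livers for 17 and WT 2 for 12, while NML-KO 2 was the lowest of the NML-KO livers for 14 and NML-KO 4 for 13. NML-KO 5 was the highest NML-KO liver for 15 and NML-KO 3 for 13. WT 5 was the highest WT liver for 11 and WT 2 for 10. For the 10 Cyp2c genes among the 39, WT 1 was the lowest WT liver 7 times and NML-KO 2 the lowest NML-KO liver 5 times. WT 4 was the highest WT liver for 6 of them and NML-KO 3 the highest NML-KO liver for 5. WT 1, WT 2, NML-KO 2 and NML-KO 3 are Dbp-high livers. WT 4, WT 5, NML-KO 4 and NML-KO 5 are Dbp-low, and NML-KO 4 had the highest Kupffer cell marker mean.

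Grouped by regulator, the calls between Dbp sets, made for 12.9% of all genes, fell as follows. Of the 3 aryl hydrocarbon receptor targets 1 was called between Dbp sets, Cyp1b1, and 0 between genotypes. Of the 3 PPARA targets measured, 0 were called in either comparison. Among the PAR bZIP targets only Cyp2b10 had a probe set of its own, and it was not called. The other listed targets, Cyp2a4 and Cyp2a5, share a probe set that the member rule left out and that was not tested. It read 12.98, 13.03, 12.73, 13.15 and 12.91 in the Dbp-high livers WT 1, WT 2 and NML-KO 1 to 3. In the Dbp-low livers WT 3 to 5, NML-KO 4 and NML-KO 5 it read 11.61, 12.27, 12.17, 11.44 and 12.20. The sets did not overlap there, as for 12.2% of all genes. Of 6 pericentral genes measured 1 was called between Dbp sets, Cyp2e1. Of 4 female-biased and 4 male-biased P450 genes measured 0 were called in either comparison. Of the male-biased genes only Cyp2d9 is a member, as Cyp4a12a, Cyp4a12b and Cyp7b1 fall outside the member rule. Of 7 genes best known outside hepatocytes, Cyp1b1 was called between Dbp sets.

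The partners of these enzymes were examined from lists drawn up for this purpose. No gene of these lists passed between genotypes. Of 17 measured receptors and liver transcription factors of P450 genes, 1 was higher in Dbp-high livers, Ppara, and 1 lower, Stat5b, which carries the growth hormone signal (log2 difference -0.41, SE 0.054, adjusted p = 0.00129 by limma). Of 8 measured genes of haem supply, Alas1, the first enzyme of haem synthesis, was higher (log2 difference 2.15, SE 0.32, adjusted p = 0.00253 by limma), with 11.76 to 12.21 against 8.46 to 11.00, while Ppox and Uros, 2 later enzymes, were lower (log2 differences -0.50 and -0.25). Of 5 measured redox partners, which include the cytochrome b5 genes, 0 were called, and Por had no probe set of its own. Of the PAR bZIP genes, Dbp, which defined the sets, and Tef (log2 difference 1.69) were higher and the repressor Nfil3 (-1.69) was lower, while Hlf was not called (0.28, adjusted p = 0.161 by limma). Among markers of other cells, the Kupffer cell list had 1 of 6 genes called between the Dbp sets, Vsig4, which was lower in Dbp-high livers, and its mean ran from 7.26 to 8.13 in Dbp-high and from 7.87 to 8.56 in Dbp-low livers. Of 4 measured bile duct markers Sox9 was lower, and of the endothelial, stellate, lymphocyte, neutrophil and adipocyte markers 0 were called. The part of these markers in the P450 values was not tested.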

How the data were processed

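Total RNA from 10 livers, 5 per genotype, was labelled with biotin with an Affymetrix WT Terminal Labeling Kit, per the labels' protocols. The deposited values are linear intensity, from 18.4 to 29834, for 28815 probe sets. The submitters' processing notes name build mm8. Which background correction, normalization and summarization the authors used is not stated there or in the labels. Any background left in the values would shrink the differences of dim genes. Probe sets were named through the platform table: 21780 had 1 symbol, 1605 several and 5430 none there. Symbols were updated through the gene ID in RefSeq (21689 matched), and of several probe sets of a gene the one with the highest mean was used, leaving 19935 genes.

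Titles gave each array's genotype and number, and nothing more is said of litters, so p-values measure the spread between these livers. Values were taken to log2 without a filter. Linear models (lmFit, then eBayes) from limma 3.58.1 under R 4.3.3 were fitted to all genes, with Benjamini-Hochberg adjustment over all of them and a threshold of 0.05: genotype alone, genotype and Dbp set, and both with their product. The Dbp sets were cut at a log2 intensity of 8. The fits were tested on simulated data. Named genes were all members called between Dbp sets, the 8 with the smallest p between genotypes, and members of lists of P450 roles; Cyp2c38, Cyp2d40, Cyp2c68, Cyp2f2, Cyp3a57 and the interaction genes were picked with their values in view. The members, the Dbp sets and the lists were chosen with earlier results of these data known. Alternatives were array weights, quantile normalization, centring on the median, a robust trended prior, leaving out genes with a mean log2 below 6, the mean of a gene's probe sets, an offset of 16, the replicate block, the Dbp set as a term or within it, each array left out, other thresholds and a wider member rule. Protein sequences were not used here.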

Additional observations from a re-analysis of the deposited data

Results flagged for a closer look

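In 76 groups of 5 livers (37 named members and Rrp8, in each genotype) a liver stood apart in 4, by a gap to the nearest liver above 0.71 of the group's range; chance alone gives about 1 in 20. Cyp3a44 was lowest in NML-KO 4, at 7.10 against 7.74 in the next NML-KO liver. Cyp2d9 was lowest in WT 2, at 10.6 against 11.6 in the next WT liver. Cyp2s1, an epithelial P450 gene, was highest in WT 1, at 6.18 against 5.86 (log2), and Cyp4x1, a gene best known from brain, was highest in WT 1 as well, at 5.34 against 5.00.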

How the results depend on the processing

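Between genotypes, 0 members were called by limma under every alternative run, with 0 to 7 at an unadjusted p below 0.05, the replicate block (0 called, median -0.020) and the wider member rule included. Deviations of same-numbered arrays from their genotype means correlated at 0.26 to 0.54 for 4 numbers and at -0.42 for number 3, the one number whose livers lie in different Dbp sets, so whether the numbers pair the arrays was not settled and the block was not used. With 1 array left out the genotype median ran from -0.043 to 0.0010, and it was 0.023 among Dbp-high and -0.064 among Dbp-low livers. Rrp8 (adjusted p = 0.109 by limma) passed only without NML-KO 4 (log2 difference -0.96, adjusted p = 0.0171), and with 1 array left out it ran from -0.96 to -0.82. Cyp2b23 turned to -0.035 among Dbp-low livers. Between Dbp sets, the 11 calls became 18 at an adjusted p below 0.1 by limma and 0 at 0.01. They became 6 within WT livers (9.23%, against 6.13% of all genes) and 0 within NML-KO livers (against 1.28%). With WT 2 and NML-KO 4 both left out (chosen after seeing the data) there were 6, and with 1 array left out 4 to 12. For the other thresholds and the fits that left arrays out, the share of all genes was not counted. The same holds for the unadjusted counts between genotypes under the alternatives. Whether those counts are particular to the members was therefore not tested. The median moved to -0.13 with dim genes left out and to 0.077 within NML-KO livers, and with 1 array left out it ran from -0.032 to 0.045. The interaction gave 0 calls among members by limma under every alternative that kept more than 1 liver of each genotype in each Dbp set. In these, 4 to 11 members had an unadjusted p below 0.05 by limma. The share of all genes was not counted there, so whether such counts are particular to the members was not tested. The fits without WT 1, WT 2, NML-KO 4 or NML-KO 5 leave 1 liver for a genotype in a Dbp set. That liver is assumed to vary like the others, so these fits say nothing of stability. The cause of these changes was not tested. Some alternatives hold fewer arrays or genes, and the part of that was not tested either.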
